A study of Mus musculus with 5 samples.

Results

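Zbtb16, the gene of the transcription factor PLZF, and 7 genes of the SLAM system were followed in thymic CD4 single positive (CD4 SP) cells that lack TET2 and TET3. The 7 are the SLAM receptor genes Slamf1, Slamf6, Slamf7, Ly9, Cd48 and Cd84, and Sh2d1a, which encodes their adaptor SAP. The genes were chosen by name, as known from the selection of innate-like T cells, and with earlier results of these data known. They are 8 of the 55487 annotated genes counted in each library. All 8 were among the 13525 genes with enough reads to be tested.

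The libraries came from 3 wild type (WT) mice and 2 Tet2-/-Tet3flx/flxCD4cre mice (Tet2/3 double knockout, DKO), all young C57BL/6J animals, with 1 library per mouse. In the DKO mice Tet2 is missing in every tissue, while Tet3 is removed by Cre under the control of the Cd4 gene, that is, from the thymocyte stage that makes CD4 onwards. Live CD4+ TCRβ+ CD24low CD8- cells that did not bind the CD1d tetramer loaded with αGalCer were sorted from both genotypes. That tetramer marks invariant natural killer T (iNKT) cells, so the gate leaves out the cells in which PLZF is best known.

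PLZF directs the effector program of innate-like T cells, such as iNKT, MAIT and some γδ T cells, and conventional CD4 T cells make little of it. Of these, iNKT and MAIT cells are selected by other thymocytes that present CD1d or MR1. There, contacts between SLAM receptors on both partners, relayed inside the cell by SAP and the kinase Fyn, add the signal that switches PLZF on. TET proteins oxidize 5-methylcytosine, mostly at CpG, the first step in removing DNA methylation.

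Reads counted on genes ranged from 17607089 to 27267031 per library, and Tet3 was below every WT library in both DKO libraries, with 1133, 1082 and 1440 counts in WT against 419 and 235 in DKO cells. Tet2 had 1355, 1286 and 1585 counts in WT against 1919 and 1048 in DKO libraries, in CPM above every WT library in both (log2 fold change 0.46, edgeR adjusted p = 0.135). The value was 0.095 without DKO replicate 1 (edgeR adjusted p = 0.725) and 0.72 without DKO replicate 2 (edgeR adjusted p = 0.000506). Gene counts cannot show whether an exon of Tet2 is missing and do not test that allele. The labels call WT replicate 1 female and the other mice male, and the libraries of WT replicate 1 and DKO replicate 1 go against them. Xist, made in female cells, had 744 counts in DKO replicate 1 and 0 to 2 elsewhere, and 4 Y-linked genes together had 7 counts there and 5101 to 7041 elsewhere. Reads on no annotated gene were 5.70% in that library and 3.51% to 3.72% in the others. The tests of the genes below were therefore also run without DKO replicate 1.

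Zbtb16 rose 14.7-fold in DKO CD4 SP cells, from nearly no reads. Its counts were 32, 13 and 24 in the WT libraries and 251 and 253 in the DKO libraries, so both DKO libraries lay above all WT libraries. As counts per 1000000 reads of the effective library size (CPM), the gene (ENSMUSG00000066687, mm10 chromosome 9 from 48654297 to 48836222, minus strand) had 0.887 ± 0.345 CPM (SD, n = 3) in WT and 13.1 ± 1.55 CPM (SD, n = 2) in DKO cells. The log2 fold change was 3.85 with a standard error (SE) of 0.29, a 95% interval of 3.21 to 4.50 and an adjusted p of 8.57e-05 (edgeR, quasi-likelihood test). Adjusted p-values are those of Benjamini and Hochberg over all tested genes, and genes under 0.01 are called changed. Without DKO replicate 1 the log2 fold change was 3.97, and it lay between 3.62 and 4.16 whichever library was left out.

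Of the 8 genes, 3 passed this threshold, Zbtb16 and Slamf6 higher and Slamf1 lower, where 3.92% of all tested genes passed, 2.42% higher and 1.5% lower. The 8 were chosen with earlier results known, so this count is not independent evidence. The DKO libraries were both above all WT libraries for 5 of the 8 genes, both below for 1 and overlapping for 2, where 19.6% of all tested genes were above, 19.5% below and 39.1% either. The median log2 fold change of the 8 was 0.37, and that of all tested genes was 0.01. The share of all genes past the threshold moved with the library left out, to 9.13% without DKO replicate 1, to 8.0% without DKO replicate 2 and, with WT replicate 1, 2 or 3 left out in turn, to 1.14%, 0.822% and 0.956%, and counts given below without a library are to be read against these shares. At an unadjusted p under 0.05 it was 23.0%, 6 of the 8 genes among them. In sorted populations read as a whole, more cells that make a transcript and more transcript per cell cannot be told apart.

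**Figure D1:**
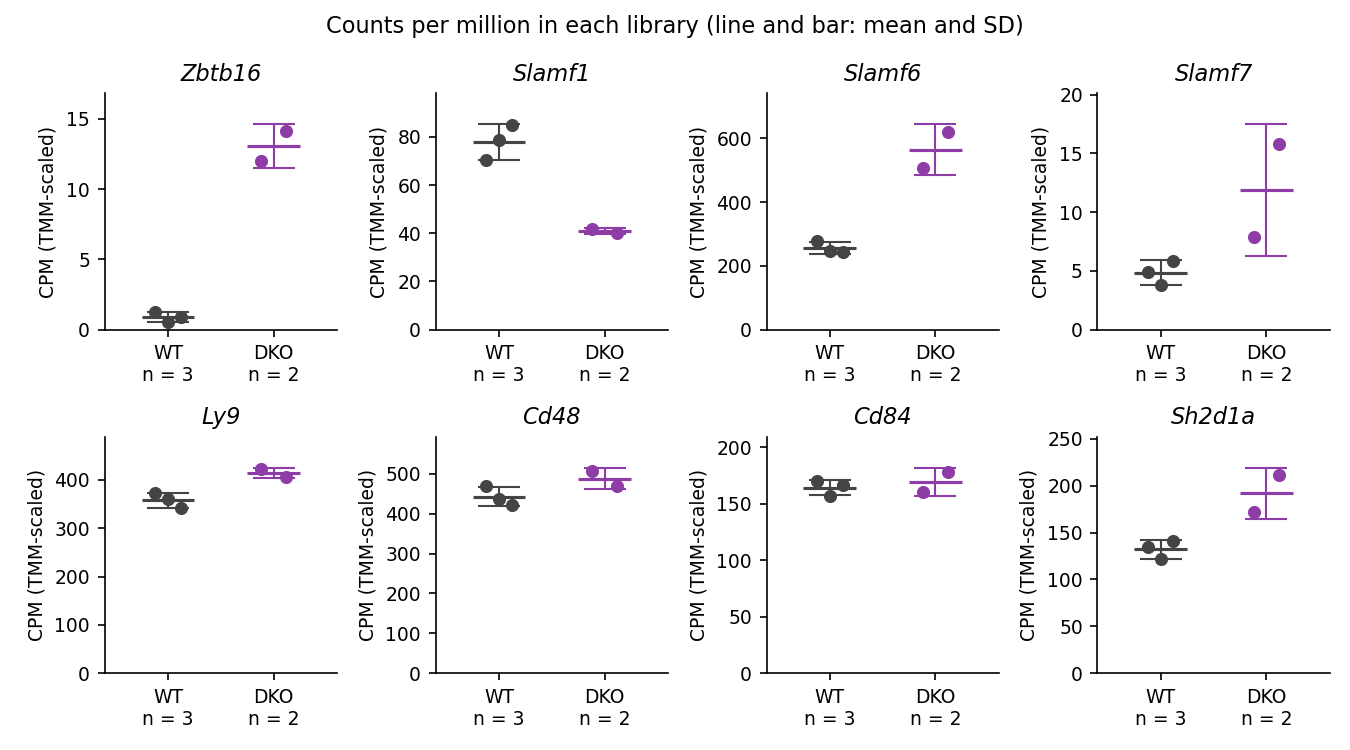
CPM (vertical axis, starting at 0, scaled to effective library size) of the 8 genes in each of the 3 WT and 2 DKO libraries. Points are libraries, lines and bars their mean and SD. Both DKO points lie above all WT points for Zbtb16, Slamf6, Slamf7, Ly9 and Sh2d1a and below them for Slamf1, while Cd48 and Cd84 overlap.

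Among the receptors, Slamf6 and Slamf1 moved in opposite directions. Slamf6 encodes Ly108, which binds itself on a neighbouring thymocyte and takes part in iNKT cell selection. It had 7211, 5863 and 6697 counts in WT against 10658 and 11101 in DKO libraries, which were above every WT library although they were sequenced to lower depth. The gene (ENSMUSG00000015314, chromosome 1 from 171917515 to 171953170, plus strand) rose 2.20-fold, from 256.7 ± 19.3 CPM (SD, n = 3) to 564.6 ± 79.9 CPM (SD, n = 2). Its log2 fold change was 1.14 (SE 0.11, 95% interval 0.90 to 1.38, edgeR adjusted p = 0.00033), and 1.27 without DKO replicate 1.

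Slamf1 encodes the founding SLAM receptor, CD150, also its own ligand and also a signal in iNKT cell selection. Its counts were 1817, 1865 and 2329 in WT and 877 and 716 in DKO cells, both below every WT library. The gene (ENSMUSG00000015316, chromosome 1 from 171767127 to 171801184, plus strand) went from 77.9 ± 7.32 CPM (SD, n = 3) to 40.9 ± 1.24 CPM (SD, n = 2), a level 1.90-fold lower. Its log2 fold change was -0.93 (SE 0.12, 95% interval -1.19 to -0.67, edgeR adjusted p = 0.00152). The call was lost without WT replicate 2 (edgeR adjusted p = 0.0162) and without WT replicate 3 (edgeR adjusted p = 0.0137), at log2 fold changes of -0.92 and -0.86, and was kept without DKO replicate 1, at -0.96.

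The opposite moves can be read within each library, where scaling has no part. Slamf6 had 3.97, 3.14 and 2.88 reads per read of Slamf1 in the WT libraries and 12.2 and 15.5 in the DKO libraries. Against Ly9, a receptor gene with a smaller change, Slamf6 went from 0.748, 0.686 and 0.713 reads per read to 1.20 and 1.53, while Slamf1 went from 0.188, 0.218 and 0.248 to 0.0991 and 0.0985. Each ratio keeps the genotypes apart. These ratios were formed after the changes of both genes were known and are descriptions with no test.

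Methylated cytosine is the substrate of TET proteins, so the CpGs just upstream of the pair are shown. The 250 bases before the RefSeq start (GRCm38.p6) follow, 5′ to 3′, in lower case with each CpG in capitals, chosen because these receptor genes moved in opposite directions. Slamf6 is at chr1:171917212-171917461 and Slamf1 at chr1:171766882-171767131, both on the plus strand.
Slamf6: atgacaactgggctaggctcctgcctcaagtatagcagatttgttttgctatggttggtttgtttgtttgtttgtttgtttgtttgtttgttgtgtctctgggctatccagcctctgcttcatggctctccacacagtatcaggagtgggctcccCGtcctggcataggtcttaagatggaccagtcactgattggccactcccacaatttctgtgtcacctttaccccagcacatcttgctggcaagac
Slamf1: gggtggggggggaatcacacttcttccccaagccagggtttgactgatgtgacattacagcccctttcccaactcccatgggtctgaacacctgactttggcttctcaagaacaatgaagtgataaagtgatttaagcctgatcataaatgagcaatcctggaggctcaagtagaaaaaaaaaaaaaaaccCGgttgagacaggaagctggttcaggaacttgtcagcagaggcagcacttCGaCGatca

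Slamf6 held 1 CpG in the 300 bases that end 50 bases after its start, and Slamf1 held 4, where the median over 32851 promoters of that length was 7. At most 1 CpG was found in 14.1% of these promoters and at most 4 in 38.0%. Cd48 held 7, and Cd84 and Slamf7 held 3 each. The windows of Zbtb16, Ly9 and Sh2d1a were not analysed here. The counts describe sequence and no methylation was measured in these libraries.

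The other receptors did not pass the threshold. Slamf7, which encodes CRACC, a receptor of cytotoxic and plasma cells, had 127, 90 and 161 counts in WT against 166 and 283 in DKO libraries, above every WT library but far apart from each other. It had 4.86 ± 1.04 CPM (SD, n = 3) in WT and 11.9 ± 5.60 CPM (SD, n = 2) in DKO cells, a log2 fold change of 1.26 (SE 0.31, 95% interval 0.55 to 1.96, edgeR adjusted p = 0.0389). The value was 1.69 without DKO replicate 1, with an edgeR adjusted p of 3.99e-05, and 0.68 without DKO replicate 2, and DESeq2 gave an adjusted p of 0.00415 with all libraries.

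Ly9, the gene of a self-binding receptor that restrains innate-like T cells, had 9643, 8552 and 9390 counts in WT against 8853 and 7272 in DKO libraries. After scaling these gave 373, 360 and 342 CPM in WT and 422 and 407 CPM in DKO cells. Both DKO values were above all WT values, and the difference was small, a log2 fold change of 0.21 (SE 0.08, 95% interval 0.03 to 0.39, edgeR adjusted p = 0.157).

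Cd48, which encodes the GPI-anchored ligand of CD2 and CD244, had 470, 437.5 and 422 CPM in WT and 507 and 469 CPM in DKO libraries, which overlap. Its log2 fold change was 0.14 (95% interval -0.05 to 0.33, edgeR adjusted p = 0.384). Cd84, the gene of a self-binding receptor that also signals through SAP, had 170, 157 and 166.5 CPM in WT and 161 and 178 CPM in DKO libraries, which also overlap. Its log2 fold change was 0.04 (95% interval -0.16 to 0.25, edgeR adjusted p = 0.838) and turned negative, to -0.05, without DKO replicate 2. For Cd48 and Cd84 the intervals leave out a change of the size of Slamf6 or Slamf1.

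Sh2d1a, whose product SAP links SLAM receptors to Fyn, did not pass the threshold. It had 134, 121 and 141 CPM in WT and 172 and 211 CPM in DKO libraries, all of the latter above the former. From 132 ± 9.93 CPM (SD, n = 3) to 192 ± 27.3 CPM (SD, n = 2), the log2 fold change was 0.54 (SE 0.11, 95% interval 0.28 to 0.79, edgeR adjusted p = 0.0175). Sh2d1a lies on chromosome X (ENSMUSG00000005696, from 42502453 to 42529330), and DKO replicate 1 is the library with Xist reads. Without that library the log2 fold change was 0.67, with an edgeR adjusted p of 0.000387, and without DKO replicate 2 it was 0.37, with an edgeR adjusted p of 0.0383. DESeq2 gave an adjusted p of 0.000645 with all libraries, so with DESeq2 5 of the 8 genes passed 0.01, against 6.91% of all genes that tool tested. At an edgeR adjusted p under 0.05 it was also 5 of 8, against 8.67% of all tested genes.

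**Figure D2:**
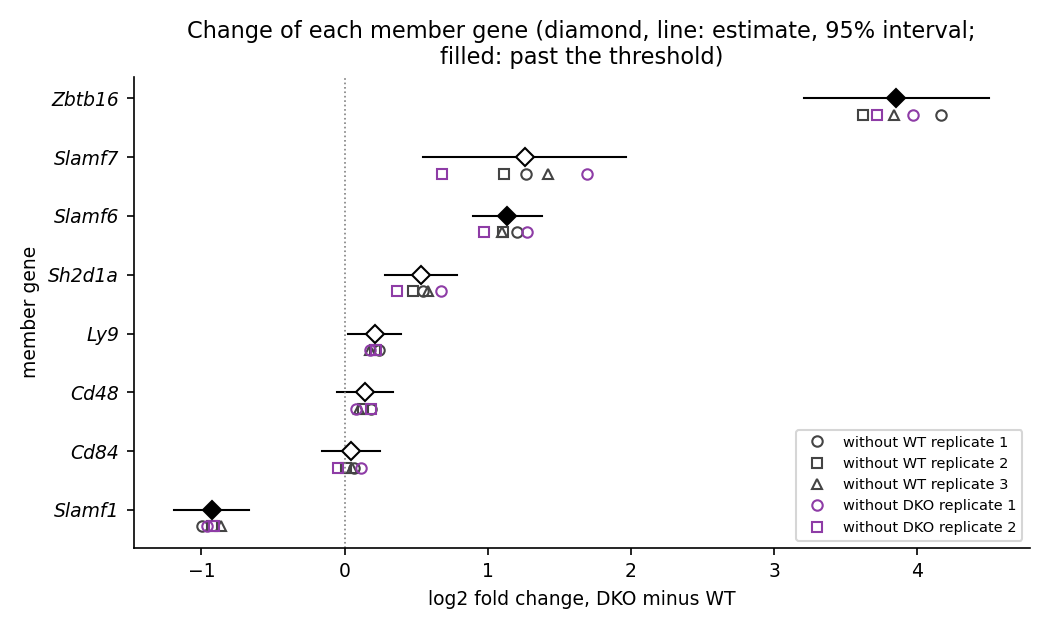
Log2 fold change of DKO against WT cells (horizontal axis) for the 8 genes (vertical axis), as estimate and 95% interval, filled where the adjusted p is under 0.01, with the value without each library in turn below. Zbtb16 lies at 3.85, Slamf6 at 1.14 and Slamf1 at -0.93, and the value of Slamf7 runs from 0.68 to 1.69 with the DKO library left out.

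To order the genes against each other, counts were divided by the length of the merged exons and scaled to a sum of 1000000 in every library (TPM). In WT cells Cd48 was the most abundant, at 1060 ± 57.0 (SD, n = 3), followed by Ly9 at 308.3 ± 15.6. Cd84 at 74.5 ± 1.22, Sh2d1a at 68.2 ± 3.61 and Slamf6 at 67.4 ± 4.35 came next, and the libraries of Sh2d1a and Slamf6 overlapped. Slamf1 stood at 36.0 ± 3.63, Slamf7 at 3.01 ± 0.585 and Zbtb16 last at 0.474 ± 0.175. Zbtb16 thus lay at percentile 6.9 of the tested genes in WT cells, and Cd48 at percentile 99.2.

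In DKO cells the order on this scale began with Cd48 at 1142 ± 17.9 (SD, n = 2) and Ly9 at 348.6 ± 4.73. Slamf6 came next at 145.5 ± 26.3, ahead of Sh2d1a at 97.2 ± 17.7 and Cd84 at 75.3 ± 8.49. Slamf1 followed at 18.5 ± 0.171, and Slamf7 at 7.29 ± 3.69 and Zbtb16 at 6.90 ± 1.09 overlapped. Zbtb16 had moved to percentile 40.5, Slamf6 from 80.3 to 90.1, and Slamf1 from 70.3 to 58.4. The level of Zbtb16 therefore stayed the lowest of the 8 in mean after its rise. Exons of Sh2d1a share 1465 of 5505 bases with Tenm1, which had 0 to 4 counts, and exons of Slamf7 share 423 of 4577 bases with Gm37787, where reads are assigned to no gene, so the levels of both are understated. With the longest transcript as length, Sh2d1a and Cd84 changed places in WT cells.

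**Figure D3:**
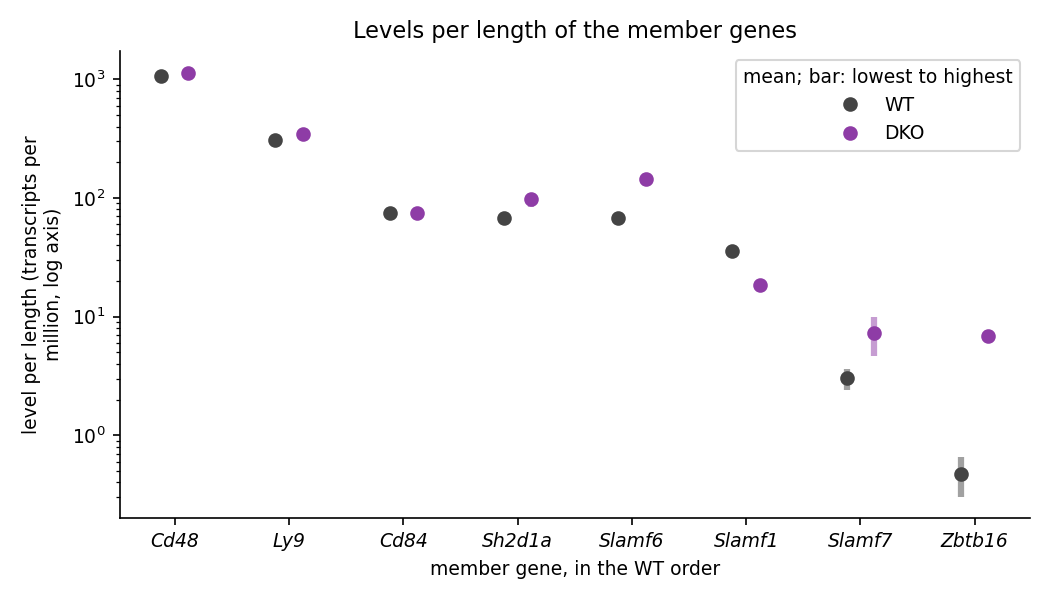
Level per exon length in TPM (vertical log axis) of the 8 genes in the WT order (horizontal axis), as means with bars from the lowest to the highest library (3 WT, 2 DKO). Slamf6 moves from rank 5 to rank 3. Zbtb16 rises from 0.474 to 6.90 and remains the last in mean, with DKO libraries that overlap those of Slamf7.

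The SLAM receptor genes are neighbours on chromosome 1, which allows a comparison with the genes between and around them. The stretch from the first to the last of the 9 receptor genes spans 1031.4 kb, and 7 of the 9 were tested. Of these 1 was higher, 1 lower and 5 not past the threshold. Slamf1 and Slamf6 are separated by Cd84, which starts 38.5 kb after Slamf1 ends and ends 26.8 kb before Slamf6 starts and had a log2 fold change of 0.04. Cd48, 61.9 kb before Slamf1, had 0.14. The seventh tested receptor gene, Cd244a, had 8, 8 and 33 counts in WT against 40 and 32 in DKO libraries, a log2 fold change of 1.54 that did not pass (edgeR adjusted p = 0.117). It was 2.50 without WT replicate 3 (edgeR adjusted p = 0.0322) and 1.21 without WT replicate 1 (edgeR adjusted p = 0.313), and it passed in neither case.

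Within this stretch and 200 kb on each side, 25 other tested genes were compared here, not the full set of neighbours, with a median log2 fold change of -0.10. Of these 25 edgeR called 0, with 4 at an unadjusted p under 0.05 (23.0% of all tested genes), 3 of them higher, and DESeq2 called 0. Gm37065, which lies across the start of Slamf6 on the other strand, had 71, 58 and 70 counts in WT against 93 and 97 in DKO libraries (log2 fold change 0.92, edgeR adjusted p = 0.0557). Its span shares 1.8 of 9.4 kb with that of Slamf6, while the exons of Slamf6 share 0 bases with those of another gene. Without strand in the libraries, any reads of unspliced Slamf6 transcript on exons of Gm37065 cannot be told from its own. Of the 32 genes compared, receptors included, 2 passed, where 3.92% of all tested genes did, and 1 passed without WT replicate 2 or 3. Tagln2, which is not a receptor gene, had a log2 fold change of 0.43. It was 0.62 without DKO replicate 1 and 0.19 without DKO replicate 2.

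**Figure D4:**
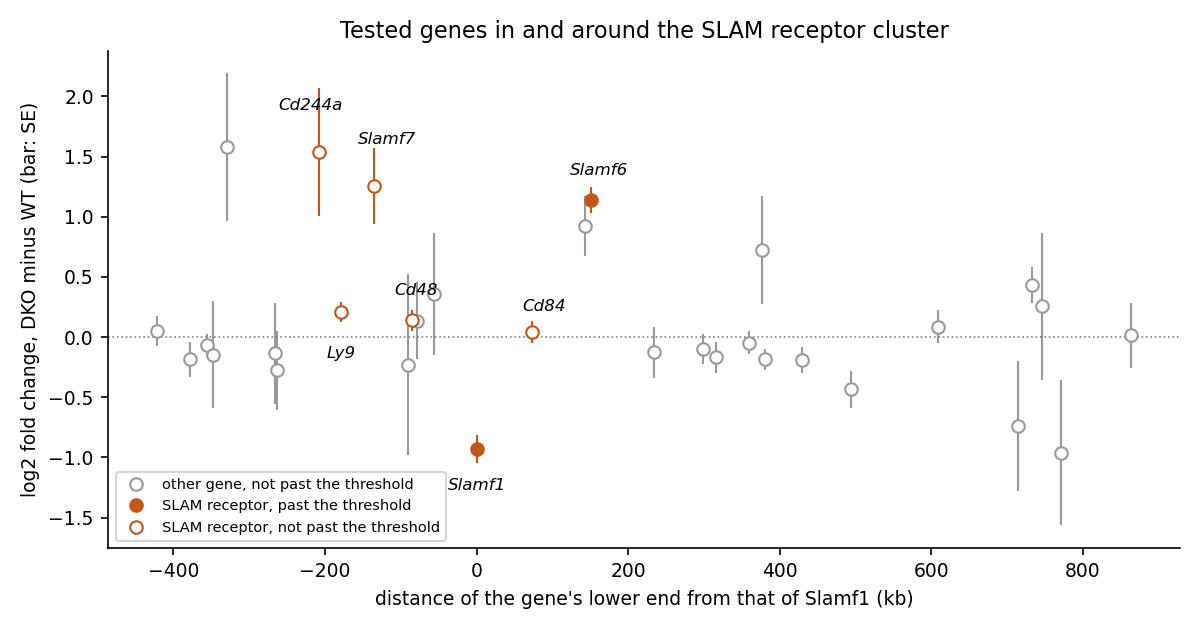
Log2 fold change with SE (vertical axis) of 32 tested genes in and around the SLAM receptor cluster against the distance of each gene's lower end from that of Slamf1 in kb (horizontal axis), SLAM receptors in orange and filled where the adjusted p is under 0.01. Slamf6 lies above 0 and Slamf1 below, with Cd84 between them near 0.

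Partners and signal carriers of the SLAM receptors did not move past the threshold. Of 19 such genes 15 were tested, and by edgeR 0 passed, with 7 at an unadjusted p under 0.05 (23.0% of all tested genes), 2 passing by DESeq2 and 3 of the 15 passing without DKO replicate 1. The median log2 fold change of the 15 was 0.06. Fyn, the kinase that SAP recruits, had a log2 fold change of -0.23 (edgeR adjusted p = 0.195), Lck, the kinase upstream of it, -0.19 (edgeR adjusted p = 0.198), and Prkcq, the gene of protein kinase C theta, -0.20 (edgeR adjusted p = 0.307). Nfkb1, the NF-κB subunit p50 through which SAP and Fyn act, had 1084, 1006 and 1214 counts in WT against 1209 and 1175 in DKO libraries, a log2 fold change of 0.52 with an edgeR adjusted p of 0.0154. Nck1, an adaptor, had 0.48 with an edgeR adjusted p of 0.0126. Sh2d1b1, the gene of the SAP relative EAT-2 that NK cells use with Slamf7, had 0 counts in all WT libraries and 1 and 21 in the DKO libraries, too few to be tested over all 5 libraries, and it passed without DKO replicate 1.

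Regulators of Zbtb16 and of the cells that express it changed in part. Of 28 tested, 1 rose and 4 fell, or 17.9% against 3.92% of all tested genes, with a median log2 fold change of -0.03. The regulators were listed with results of these libraries known, so their count is not independent evidence. Drosha, the nuclear RNase that begins miRNA processing, showed the largest change of the 28. Its counts were 4584, 3714 and 4583 in WT and 272 and 226 in DKO libraries, a log2 fold change of -3.70 (SE 0.12, edgeR adjusted p = 1.02e-06). Zbtb7b, the gene of Th-POK, the factor that holds thymocytes in the CD4 lineage, had 975, 1228 and 1152 counts in WT against 401 and 352 in DKO libraries, a log2 fold change of -1.17 (SE 0.16, edgeR adjusted p = 0.00225).

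Lef1 and Tcf7, whose products are HMG-box partners of β-catenin in thymocytes, fell by 0.60 and 0.56 on the log2 scale (edgeR adjusted p = 0.00611 and 0.0074). Myb, a transcription factor gene needed for iNKT cell precursors, rose by 1.51 (edgeR adjusted p = 0.00204), from 105, 93 and 91 counts to 219 and 197. All of these but Drosha lost the call when WT replicate 2 or 3 was left out, and Myb, Lef1 and Tcf7 also without WT replicate 1, with edgeR adjusted p-values up to 0.0478, and all kept it without DKO replicate 1. The number of the 28 past the threshold was 10 without DKO replicate 1, 11 without DKO replicate 2, 2 without WT replicate 1 and 1 without WT replicate 2 or 3. Egr2, which binds the Zbtb16 promoter downstream of the T cell receptor, had 970, 809 and 1172 counts in WT against 495 and 1242 in DKO libraries, a log2 fold change of 0.27 (edgeR adjusted p = 0.708). It was 0.86 without DKO replicate 1 (edgeR adjusted p = 0.000255) and -0.71 without DKO replicate 2 (edgeR adjusted p = 0.00685), so the direction at Egr2 differs between the DKO libraries.

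Genes of the innate-like program that PLZF-expressing T cells carry passed the threshold more widely. Of 30 tested, 13 rose and 3 fell, or 53.3% against 3.92% of all tested genes, with a median log2 fold change of 1.34 against 0.01. This list was drawn up with results of these libraries known and its count is not independent evidence. Cxcr3, a chemokine receptor gene, had 482, 455 and 856 counts in WT against 5187 and 5787 in DKO libraries, a log2 fold change of 3.63 (SE 0.21, edgeR adjusted p = 2.27e-05). Itgae, which encodes the integrin CD103, rose by 2.63 on the log2 scale, from 100, 160 and 121 counts to 667 and 529.

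The NK receptor genes Klrb1c and Klrd1 rose by 2.699 and 2.588 on the log2 scale, Maf, a transcription factor gene of IL-17 and IL-4 producing cells, by 3.09, and S100a6, a calcium binding protein gene, by 3.17. The DKO libraries of Maf, S100a6 and Klrb1c differed widely. Maf had 189 and 596 counts against 55, 67 and 66 in WT, and its log2 fold change was 1.87 to 3.77 with a DKO library left out. S100a6 had 704 and 1813 counts against 152, 179 and 244, with 2.16 to 3.76, and Klrb1c had 144 and 318 counts against 61, 39 and 43, with 1.87 to 3.25. Klrd1 lost the call without WT replicate 2 or 3 and Klrb1c, Maf and S100a6 without any of the 3 WT replicates, with edgeR adjusted p-values up to 0.0542, while Cxcr3 and Itgae kept it whichever library was left out. The number of program genes past the threshold was 28 without DKO replicate 1 (9.13% of all genes), 18 without DKO replicate 2, 5 without WT replicate 1 and 4 without WT replicate 2 or 3. The 3 genes that fell were S1pr1 and Ccr7, which guide T cells out of the thymus and into lymph nodes, at -0.64 and -0.65, and Ccr6, a chemokine receptor gene, at -2.21. Without any one WT replicate S1pr1 and Ccr7 lost the call, with edgeR adjusted p-values of 0.0118 to 0.0336, and Ccr6 kept it.

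Zbtb16 was also set beside its own gene family, the BTB-ZF factors, of which it is 1. Of 16 other members tested, 0 rose and 2 fell, or 12.5%, with a median log2 fold change of -0.09. They too were listed with results of these libraries known. By edgeR 3.92% of all tested genes passed, and 6 of the 16 were at an unadjusted p under 0.05, against 23.0% of all. Those that fell were Zbtb7b, given above, and Zbtb38, whose product binds methylated DNA, from 1823, 1823 and 1939 counts to 720 and 780 (log2 fold change -0.90, edgeR adjusted p = 0.00254). Zbtb38 lost the call without any of the 3 WT replicates and kept it without either DKO replicate, and 4 of the 16 genes passed without DKO replicate 1, 3 of them lower, against 9.13% of all. Zbtb32, named after its values were seen, had 57, 35 and 49 counts in WT against 69 and 613 in DKO libraries, a log2 fold change of 3.31 with most reads in DKO replicate 2 (edgeR adjusted p = 0.0372), while Zbtb16 was alike in both libraries.

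The α chain of the iNKT cell receptor joins TRAV11 to TRAJ18, and reads of this pair do not use the counts of Zbtb16. They were picked by V and J segment alone, whatever the join, so they need not come from iNKT cells. The deposited clonotype tables held 16 such reads over the WT libraries and 9 over the DKO libraries, among 6401 to 11215 TRA reads per library. Only 8 of the 16 and 6 of the 9 were in frame, and the others cannot encode a receptor. To show the in-frame joins, the CDR3 of 1 in-frame clonotype of each library, with as many reads as any other in-frame one there, is given 5′ to 3′, with bases assigned to TRAJ18 in capitals.
WT replicate 1: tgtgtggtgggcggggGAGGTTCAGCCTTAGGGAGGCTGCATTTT
WT replicate 2: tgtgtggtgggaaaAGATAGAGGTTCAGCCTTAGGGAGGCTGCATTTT
WT replicate 3: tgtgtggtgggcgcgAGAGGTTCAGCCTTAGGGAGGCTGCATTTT
DKO replicate 1: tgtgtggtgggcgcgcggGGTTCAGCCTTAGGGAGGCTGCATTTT
DKO replicate 2: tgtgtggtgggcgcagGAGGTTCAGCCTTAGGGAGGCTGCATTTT

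The bases from the J segment are shared and the join differs in each library. These clonotypes had 1 or 2 reads each. In WT replicate 1, WT replicate 2 and DKO replicate 1, 3, 2 and 2 clonotypes tied for the most reads, and the first in the deposited numbering is shown. TRAV11 and its near copies TRAV11D and TRAV11N cannot always be told apart, and the first segment listed was used.

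TRAV11–TRAJ18 made up 0.0636%, 0.0559% and 0.0357% of TRA reads in WT libraries and 0.0820% and 0.0156% in DKO libraries, so the DKO values lay on either side of all WT values. In DKO replicate 1 this was 8 of 9758 reads (95% Wilson interval 0.0415% to 0.162%) and in replicate 2 it was 1 of 6401 reads (0.00276% to 0.0885%), intervals that cover counting error only. The means were 0.0517% ± 0.0145 (SD, n = 3) and 0.0488% ± 0.0469 (SD, n = 2), with p = 0.9 by an exact two-sided permutation test (also 0.9 after adjustment over the 2 chains tested). With 3 against 2 libraries this test cannot give less than 0.1. In the library with 1 such read Zbtb16 was at 14.2 CPM, and in the library with 8 at 11.97 CPM. The gate had left out tetramer-binding cells in both genotypes, and which cells carried the Zbtb16 reads was not tested.

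TRAV1 joined to TRAJ33, the pair of the MAIT cell chain, was picked in the same way. It had 3, 2 and 2 reads in WT libraries and 2 and 0 in DKO libraries. Of these, 6 WT reads and 0 DKO reads were in frame. A count of 0 of 6401 reads allows a share of up to 0.0469% with 3 reads as the floor, and of up to 0.0600% by the 95% Wilson interval. The mean shares of 0.0225% ± 0.00472 (SD, n = 3) and 0.0103% ± 0.0145 (SD, n = 2) gave p = 0.2 by the exact two-sided permutation test, 0.4 after adjustment.

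**Figure D5:**
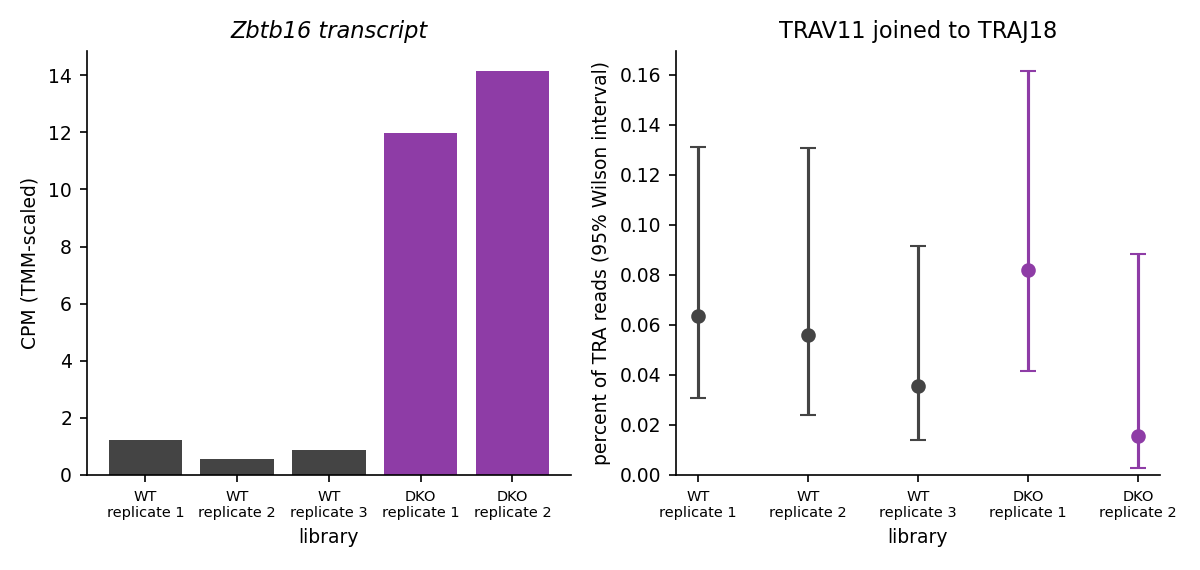
Left, Zbtb16 in CPM (vertical axis, bars from 0) in each library (horizontal axis). Right, the share of TRA reads that join TRAV11 to TRAJ18, in percent with 95% Wilson intervals. Zbtb16 is at 11.97 and 14.2 CPM in the DKO libraries and at most 1.24 CPM in WT. The right-hand intervals cover counting error only, and those of all 5 libraries overlap.

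Marker genes of other cells that express Zbtb16 or SLAM receptors moved with the genotype, and their part in the results above was not tested. By edgeR 3.92% of all tested genes passed, 2.42% higher and 1.5% lower. Counts of markers here and in the next paragraph are to be read against these shares. The marker lists were drawn up with results of these libraries known. Of 6 γδ T cell genes tested 3 rose, Tcrg-C1, Tcrg-C2 and Tcrg-C4, constant regions of the γ chain, and the summed level went from 35.1 to 38.7 CPM in WT to 238 and 380 CPM in DKO cells. Trdc, the constant region of the δ chain that these cells need for their receptor, had a log2 fold change of 0.33 (edgeR adjusted p = 0.377). The other tested genes of the list, Sox13, a γδ T cell transcription factor gene, and Cd163l1, a scavenger receptor gene of these cells, were below every WT library in both DKO libraries, at -2.12 and -1.17 (edgeR adjusted p = 0.0361 and 0.102). Of 6 NK cell genes 3 rose, Ncr1, Prf1 and Nkg7, with sums of 54.4 to 62.6 CPM in WT and 370 and 647 CPM in DKO cells. Of 8 genes of iNKT and MAIT cells 3 rose, Klrb1c, Cxcr6 and Xcl1, with sums of 426 to 455 CPM in WT and 540 and 701 CPM in DKO cells. All 3 are also on the list of the innate-like program above.

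Of 5 B cell genes Ighm rose (sums of 553 to 641 CPM and of 1028 and 1234 CPM), and Fcer2a was at 0 in all libraries. Nearly all of that sum was Ighm, with means of 592 and 1119 CPM. The median log2 fold change of the 5 B cell genes was 0.75. Cd79a, a B cell receptor chain gene, went the other way and was below every WT library in both DKO libraries, with a log2 fold change of -0.67 (edgeR adjusted p = 0.366). Of 6 plasma cell and plasmacytoid dendritic cell genes Sdc1 rose (339 to 368 CPM and 526.5 and 549 CPM). Most of that sum was Xbp1 and Bst2, and Sdc1 itself had 3.67 and 8.28 CPM in DKO libraries. The median log2 fold change of the 6 was 0.32. Tcf4, on the same list, was below every WT library in both DKO libraries, with a log2 fold change of -1.02 (edgeR adjusted p = 0.0372), and passed by DESeq2. That tool called 3 of the 6, 2 higher and 1 lower, against 6.91% of all genes it tested. Of 8 myeloid genes none passed by edgeR, with 7 at an unadjusted p under 0.05, against 23.0% of all tested genes, and none passing by DESeq2, and sums went from 12.35 to 19.997 CPM to 32.2 and 61.2 CPM, mostly from Lyz2, at a mean of 9.00 CPM in WT and 30.5 CPM in DKO cells. Flt3, 1 of the 7, went the other way, with a log2 fold change of -1.64 (edgeR adjusted p = 0.126). Of 5 genes of double positive thymocytes Cd8b1 fell (103 to 123 CPM and 61.3 and 62.9 CPM), with Rag1 at 0 in all libraries. Cd8b1 had the largest part of that sum, with means of 68.2 and 27.8 CPM, and Cd8a, above every WT library in both DKO libraries, was at a log2 fold change of 0.94 (edgeR adjusted p = 0.128). Of 6 regulatory T cell genes Foxp3 fell (366 to 431 CPM and 277 and 311 CPM). Of 14 genes of CD4 SP and mature T cells S1pr1, Cd4, Ccr7 and Cd5 fell (16459 to 17243 CPM and 14259 and 16251 CPM), so these markers were abundant in both genotypes. Without DKO replicate 1, 7 of the 8 iNKT and MAIT cell genes, 6 of them higher and Cd1d1 lower, 5 of the 6 NK cell genes and 2 each of the B cell, plasma cell, myeloid and regulatory T cell genes passed, against 9.13% of all genes. The regulatory T cell genes were Foxp3, lower, and Ctla4, higher by 0.59. Without DKO replicate 2, 4 of these 6 genes passed, against 8.0% of all, with Ikzf2 higher and Foxp3, Il2ra and Ctla4 lower, so Ctla4 turned with the DKO library left out. Xcl1, Klrb1c, Ncr1, Sdc1 and Cd4 lost the call without any one WT replicate, and Ighm and Foxp3 without WT replicate 2 or 3, with edgeR adjusted p-values up to 0.0497.

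The genes whose profile over the 5 libraries was nearest to each member were found by Euclidean distance of centred log2 CPM among 10637 candidates. Nearest to Zbtb16 were Trgv2 (0.64), a γ chain variable segment, Tcrg-C4 (0.67) and Atp6v0d2 (0.67), a proton pump subunit gene, with 19 candidates within a distance of 1. Nearest to Slamf6 were Kcna3 (0.13), a potassium channel gene, Ncoa7 (0.13) and Mettl7a1 (0.14), and nearest to Slamf1 were Ttyh3 (0.14), Arhgef33 (0.15) and Rcan3 (0.16), a calcineurin inhibitor gene.
Slamf7 lay nearest to Ttc39b, Raph1 and Bcl2a1d, at 0.23 to 0.26. For Ly9 (Ap3s2, Cd320 and Yrdc), Cd48 (Tmem241, Zfp655 and Bfar), Cd84 (Pkig, Tsen15 and Clp1) and Sh2d1a (A630001G21Rik, Gmds and Kank3) the nearest were at 0.01 to 0.1, where 8407 to 9671 candidates lay within a distance of 1. The 5 points behind each distance share the libraries and the genotype difference, so the neighbours are given as a description.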

How the data were processed

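RNA of sorted CD4 SP cells was sequenced by SMART-seq v4 with Nextera XT, which keeps neither strand nor molecular identifiers. The authors used bcl2fastq 2.20.0, trimmed reads with fastp 0.21.0 and aligned them with STAR 2.7.5a to mm10, and deposited unnormalized read counts per gene for each library. Column 2, without strand, was used. Reads in overlapping exons are in no gene's count. The deposited TRA clonotype counts come from a tool not given in the sources used here. The deposited TRB counts were not used.

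Genes passing filterByExpr were tested with edgeR 4.0.16 (TMM, quasi-likelihood, Benjamini-Hochberg adjusted p under 0.01) in R 4.3.3. The code was tested on simulated data, where not all changes near the size of that of Slamf6 were called, so a gene that did not pass may still differ. Symbols and positions come from GENCODE M21, which matched 55227 of 55487 IDs, and promoters from RefSeq. Shares were compared by exact permutation tests (scipy 1.17.1). DESeq2 1.42.0, other scalings, filters, strand columns and left-out libraries were alternatives.

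Members, lists and tests were chosen with earlier results of these data known. From each list the genes past the threshold are named, or, beyond 6, those with the largest changes among genes with a mean log2 CPM of at least 1, with exceptions stated as such. Other named list genes were chosen after their values were seen. A gene of the innate-like program and a tested gene near the SLAM cluster are not reported here, so counts over those sets leave them out.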

Additional observations from a re-analysis of the deposited data

How the results depend on the processing

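Over 16 alternatives for each of the 8 genes, 119 of 128 values kept their direction and their side of the threshold. Zbtb16, Slamf6, Ly9 and Cd48 kept both in all 16. Slamf1 lost its call in 2 alternatives, and Slamf7 and Sh2d1a passed in 3 each (DESeq2, a threshold of 0.05, where 8.67% of all genes passed, and without DKO replicate 1). The log2 fold change of Cd84 ran from -0.0477 to 0.1144 with a library left out, below 0 without DKO replicate 2.

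Member genes past the threshold numbered 3, 5 with DESeq2, 5 at a threshold of 0.05 and 2 to 5 with a library left out, the highest without DKO replicate 1. Of the 32 genes compared in and around the SLAM cluster 2 passed, and 1 to 4 with a library left out, 1 without WT replicate 2 or 3 and 4 without DKO replicate 1. Over the 4 pathway lists 22 genes passed, and 5 to 46 with a library left out, 7 without WT replicate 1, 5 without WT replicate 2, 5 without WT replicate 3 and 46 without DKO replicate 1, where Sh2d1b1 and Hic1, not tested over all 5 libraries, are among the 46. The cause was not tested.

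The difference in TRAV11–TRAJ18 share, -0.00293 percentage points, reversed to 0.008887 with in-frame clonotypes only and ran from -0.03611 to 0.03025 with a library left out, above 0 without WT replicate 1 (0.003018) or DKO replicate 2. It rests on 1 to 8 reads per library.

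The replicate numbers of the labels name different mice, and the deviations of same-numbered libraries correlated at 0.015 and 0.004, so the numbers were not taken as pairs. With the replicate number as a block 3 member genes passed, with log2 fold changes of 3.84 for Zbtb16, 1.10 for Slamf6 and -0.86 for Slamf1, and 15 pathway genes passed. With 2 DKO mice, changes as small as those of Ly9 and Cd48 could not be separated from 0 at this threshold.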
